A study of Mus musculus with 4 samples.

Results

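The cells described here are the 109 mouse leukaemia cells with the highest level of 4 interferon-induced transcripts, Ifit3, Isg15, Irf7 and Rsad2, out of 5456 kept cells. They were selected on those 4 genes: unique molecular identifiers (UMIs, each marking 1 captured transcript) were scaled to 10000 per cell, ln(1 + value) was taken, and the mean over the 4 genes was the score. Kept cells had at most 10% of their UMIs from mitochondrial genes, and the top 2% by score are the members. The 4 genes are therefore what the cells were chosen by, and no test or support is drawn from them.

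The study profiled GFP-sorted bone marrow leukaemia cells by 3' single-cell RNA sequencing. All 4 samples came from C57BL6 mice aged 11 weeks, and in all of them c-Kit+ marrow cells with a floxed Hif-1a gene and a CreERT2 transgene had been transduced with an MLL-AF9 retrovirus, a fusion oncogene of acute myeloid leukaemia, and passed through a first wild type recipient. The Hif-1a KO chemotherapy, Hif-1a KO PBS, Hif-1a wt chemotherapy and Hif-1a wt PBS samples are 1 library each. Mice had 1 mg tamoxifen or vehicle for 5 days from 10 days after transplantation. Chemotherapy followed, as 5 days of cytarabine (100 mg/kg) and 3 days of doxorubicin (3 mg/kg), or PBS in its place, and bones were collected 3 days after the last treatment. The labels name no promoter for CreERT2 and no number of mice behind a library.

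Cell barcodes carry suffixes 1 to 4, and the sources used here do not tie a suffix to a sample. Suffixes are therefore libraries with no condition, and members are set only beside the other kept cells of the same suffix. Kept cells numbered 1174, 1251, 1625 and 1406 in suffixes 1 to 4, with 7644436 to 9932649 UMIs a suffix. With 1 library per sample there is no test across samples anywhere in the text. Intervals are exact, at 95%, and cover counting error only.

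Interferons are secreted proteins that warn cells of infection or damaged nucleic acid. Type I interferons bind the receptor IFNAR, whose kinases JAK1 and TYK2 signal to the transcription factor complex ISGF3, which binds the interferon-stimulated response element (ISRE) in promoters. Among the score genes, Ifit3 encodes a partner of IFIT1 in binding viral RNA, Isg15 a ubiquitin-like protein conjugated to other proteins, Irf7 the transcription factor that amplifies interferon-alpha production, and Rsad2 the antiviral enzyme viperin. In GRCm38 (GENCODE M21), Ifit3 lies on chromosome 19 from 34583531 to 34588731, plus strand. Isg15 lies on chromosome 4 from 156199424 to 156200818, Irf7 on chromosome 7 from 141262706 to 141266481 and Rsad2 on chromosome 12 from 26442746 to 26456452, all on the minus strand.

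The promoter stretches of these genes are shown because the element that ISGF3 binds can be read in them. RefSeq promoter windows (GRCm38.p6, 250 bases before to 50 after each gene start) were searched on both strands for the ISRE core GAAANNGAAA, which reads TTTCNNTTTC on the other strand, and overlapping matches were allowed. A match was found in 3 of the 4 score genes, and none lies in the Irf7 window. Below are the stretches before the gene start for these 3 and for those of the 15 leading genes described later that had a match there. A second Mndal window, with 1 match 54 bases before its gene start, is not shown. Capitals mark the matches, each stretch runs 5′ to 3′ on the gene's strand, and all other bases are in lower case.
Ifit3, chr19:34583353-34583436, plus strand: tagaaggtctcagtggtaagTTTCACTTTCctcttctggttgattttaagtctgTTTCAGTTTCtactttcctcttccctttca
Isg15, chr4:156200855-156200916, minus strand: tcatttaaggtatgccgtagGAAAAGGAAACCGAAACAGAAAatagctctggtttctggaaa
Rsad2, chr12:26456543-26456592, minus strand: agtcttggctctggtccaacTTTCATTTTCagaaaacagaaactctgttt
Phf11b, chr14:59341351-59341400, minus strand: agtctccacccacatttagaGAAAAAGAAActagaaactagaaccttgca
Ifi203, chr1:173942498-173942547, minus strand: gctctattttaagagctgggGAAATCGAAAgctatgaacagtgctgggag
Mndal, chr1:173880194-173880243, minus strand: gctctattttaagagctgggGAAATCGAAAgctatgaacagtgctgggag
Isg15 holds 3 overlapping matches, the nearest beginning 66 bases before the gene start, and Ifit3 holds 2, the nearest at 122 bases. The Ifi203 and Mndal stretches are identical over 50 bases at 2 different places on chromosome 1.

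Of the antiviral effector genes described below, 30 have a window and 13 hold a match (43.3%). Among genes with a window, a match was found in 26 of 166 genes higher in members (15.7%), in 5 of 219 lower genes (2.28%) and in 202 of all 5159 measured genes (3.92%). Of all 32851 windows of this length, 3.44% hold the motif. A match is a run of letters and not a shown binding site.

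The members were unevenly divided over the 4 libraries. Suffixes 1 to 4 held 4, 7, 56 and 42 members. These are 0.341% (0.0929 to 0.870), 0.560% (0.225 to 1.15), 3.45% (2.61 to 4.45) and 2.99% (2.16 to 4.02) of their kept cells. Suffixes 3 and 4 thus held 98 of the 109 members. In suffix 1 a single member held 14962 of the 26875 member UMIs, so pooled member values of that suffix rest largely on 1 cell. The score reached 0.788 in suffix 1 and 0.911 in suffix 2, against 3.04 in suffix 3 and 3.30 in suffix 4. A score over 1 was found in 19 members of suffix 3 and 23 of suffix 4, and in 0 members of suffixes 1 and 2.

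**Figure D1:**
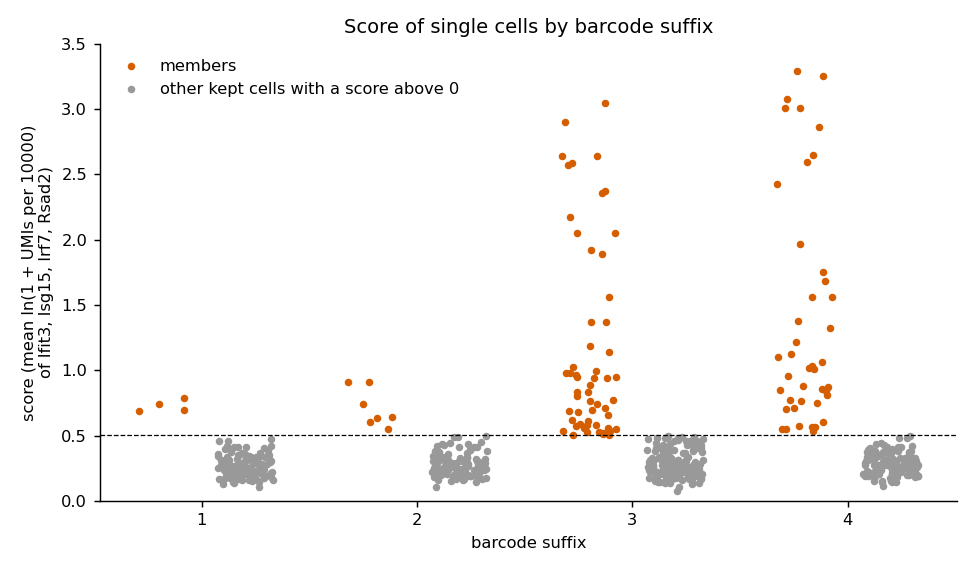
Score of each cell (y axis, mean natural log of 1 + UMIs per 10000 over the 4 genes) by barcode suffix (x axis), with members in orange and, to their right, other kept cells with a score above 0 in grey; points are spread sideways for legibility and the dashed line is the lowest member score. The members of suffixes 3 and 4 reach 3.04 and 3.30, and the 11 members of suffixes 1 and 2 all lie under 1.

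The cut falls in a continuous range. The lowest 3 members scored 0.516, 0.504 and 0.501 and the next 3 cells 0.4996, 0.495 and 0.495. The last member owed its place to 1 UMI of Irf7 among 1561 UMIs, while the cell just outside had 3 Irf7 UMIs among 4704. Members were shallower than the other kept cells, with a median of 3599 UMIs against 5856, and the median mitochondrial share was 2.42% against 2.72%. In suffixes 3 and 4 the median depth was 3345.5 and 3755 UMIs in members, against 5409 and 5429.5 in the other cells. UMIs of 4 score genes were present in 20 members, of 3 genes in 16, of 2 genes in 59 and of 1 gene in 14, of which 13 were in suffix 3. Among the 5347 other kept cells, 531 had UMIs of 1 score gene, 10 of 2 genes and 4806 of none. The share of such UMIs that comes from free RNA in droplets was not tested.

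Ifit3 stood at 0, 32.0, 409 and 531 CPM (UMIs scaled to the same total in each group) in members of suffixes 1 to 4, against 0, 0, 0.411 and 0.119 CPM in the other cells. The other cells held 5 UMIs of it in 5347 cells. Mouse Ifit3 has a close copy, Ifit3b, so reads may be divided between them. Rsad2 stood at 37.2, 0, 167 and 284 CPM in members, against 0.788, 0.362, 0.308 and 0.358 CPM. Isg15 and Irf7 had a level outside the members too, at 8.87 and 8.67 CPM over all other cells, against 590.4 and 699 CPM in members. In suffixes 1 and 2 the members were chosen mainly by Isg15 and Irf7: Isg15 had UMIs in all 11 of them and Irf7 in 10, Ifit3 in 1 and Rsad2 in 1.

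Outside the score, the members carried more transcripts of many other interferon-induced genes, fewer transcripts of genes for DNA replication and mitosis, and more of monocyte genes. For each gene, the CPM summed over members was set against the CPM expected from the other kept cells of the same suffixes, weighted by the members' UMIs in each suffix. The log2 ratio has 10 CPM added on both sides, so it understates changes of low genes. A gene was counted as past 2-fold where the ratio was at least 1 in size, had the same sign in suffixes 3 and 4 and, if higher, had UMIs in at least 5 member cells. Of 6588 genes with at least 10 CPM over all kept cells, 209 were higher (3.17%) and 291 lower (4.42%), and the median of all was -0.07. Of the 209, 206 also pass the 10 CPM limit in the other cells alone.

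Members differed from the other cells in depth and in monocyte genes, so a second comparison used matched cells: for each member, the 10 other kept cells of its suffix nearest in monocyte marker share and total UMIs. The matched cells had a median of 3605.5 UMIs and 104 monocyte marker UMIs per 10000, against 3599 and 97.4 in members. Set against them, 79 genes were higher (1.2%) and 91 lower (1.38%). Of these, 72 and 68 were also past 2-fold against all other cells.

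**Figure D2:**
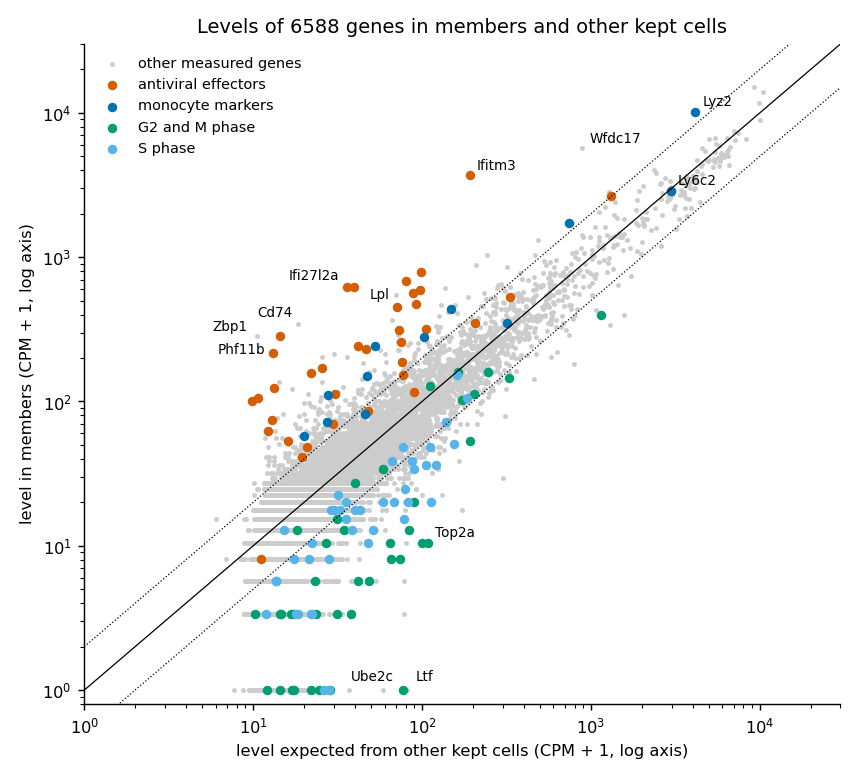
Level of each of 6588 measured genes in members (y axis) against the level expected from other kept cells of the same suffixes (x axis), both in CPM + 1 on log axes; the solid line is equality and the dotted lines are 2-fold. Antiviral effectors (orange) lie mostly above the upper dotted line, S phase and G2 and M phase genes (blue and green) mostly below the diagonal, and Ly6c2, on both the antiviral and the monocyte list, on it.

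Antiviral effectors are the proteins that restrict viral entry, replication and release. Of 37 measured genes on this list, all of which reach 10 CPM in the other cells alone, 28 were past 2-fold higher in members (75.7%, against 3.17% of all measured genes) and 0 lower, with a median log2 ratio of 1.97 against -0.07 for all genes. Against matched cells the median was 1.59, with 26 higher, against 1.2% of all measured genes. The median was 0.73 in suffix 1, 1.39 in suffix 2, 2.04 in suffix 3 and 2.12 in suffix 4. Of the 15 genes with the highest ratio of all measured, 9 are on this list.

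Ifitm3 led, a membrane protein that blocks viral fusion in endosomes (chromosome 7 from 141009586 to 141010770, minus strand, GRCm38). It stood at 335, 2271, 3809 and 4388 CPM in members of suffixes 1 to 4, against 24.8, 52.2, 231 and 195 CPM in the other cells. Members were higher in each suffix, and over all suffixes they had 3701 CPM (3520 to 3889) against 190.3 CPM expected, a log2 ratio of 4.21. Against matched cells the ratio was 2.83.

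Ifi27l2a, an interferon-induced protein of mitochondrial and nuclear membranes, stood at 0, 832, 798 and 471 CPM in members, against 16.8, 28.2, 41.3 and 31.0 CPM. The 0 in suffix 1 allows up to 112 CPM, since its 4 members hold 26875 UMIs in all. The ratio over all suffixes was 3.82, and 3.02 against matched cells. Ifi203, of the PYHIN family of DNA-binding proteins, stood at 74.4, 224, 662 and 736 CPM in members, against 44.6, 37.7, 39.1 and 37.0 CPM (ratio 3.70, matched 3.47). Its neighbour Mndal had 792 CPM in members against 97.5 CPM expected (2.90, matched 2.55). These genes and others of the family share long stretches of sequence, so the division of reads between them is uncertain.

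Phf11b had 282 CPM in members (234 to 338) against 13.3 CPM expected, a ratio of 3.65. Xaf1, a partner and inhibitor of XIAP in apoptosis, had 216 CPM against 12.03 CPM (3.36). Ms4a4c, a membrane protein of the MS4A family, had 678 CPM against 79.8 CPM (2.94), and Rnf213, a very large E3 ubiquitin ligase, 123 CPM against 12.4 CPM (2.58). Slfn2, a schlafen protein of immune cell quiescence, had 559.5 CPM against 87.1 CPM (2.55), and its matched ratio was 1.46. In each of these 5 genes, members of suffixes 3 and 4 were higher than the other cells.

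The list was not uniform. Ly6c2 stood at 2878 CPM in members against 2967 CPM expected (-0.04), and Ly6e, which aids entry of some viruses and blocks others, at 2644 against 1305 CPM (1.01, matched 0.60). Pnpt1 was the lowest member of the list. The remaining 37 list genes in the table lay under the 10 CPM limit, and 35 of them had UMIs in members. Among these, Oasl2, a 2'-5' oligoadenylate synthetase-like protein, had 209 CPM in members against 3.44 CPM expected. Ifit1 had 128 against 0.575 CPM, and Mx1 61.6 against 2.08 CPM. Since such genes lie low in the other cells, they are given as values only and entered no count of genes past 2-fold. Their UMIs are part of the antiviral sums per cell given below.

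**Figure D3:**
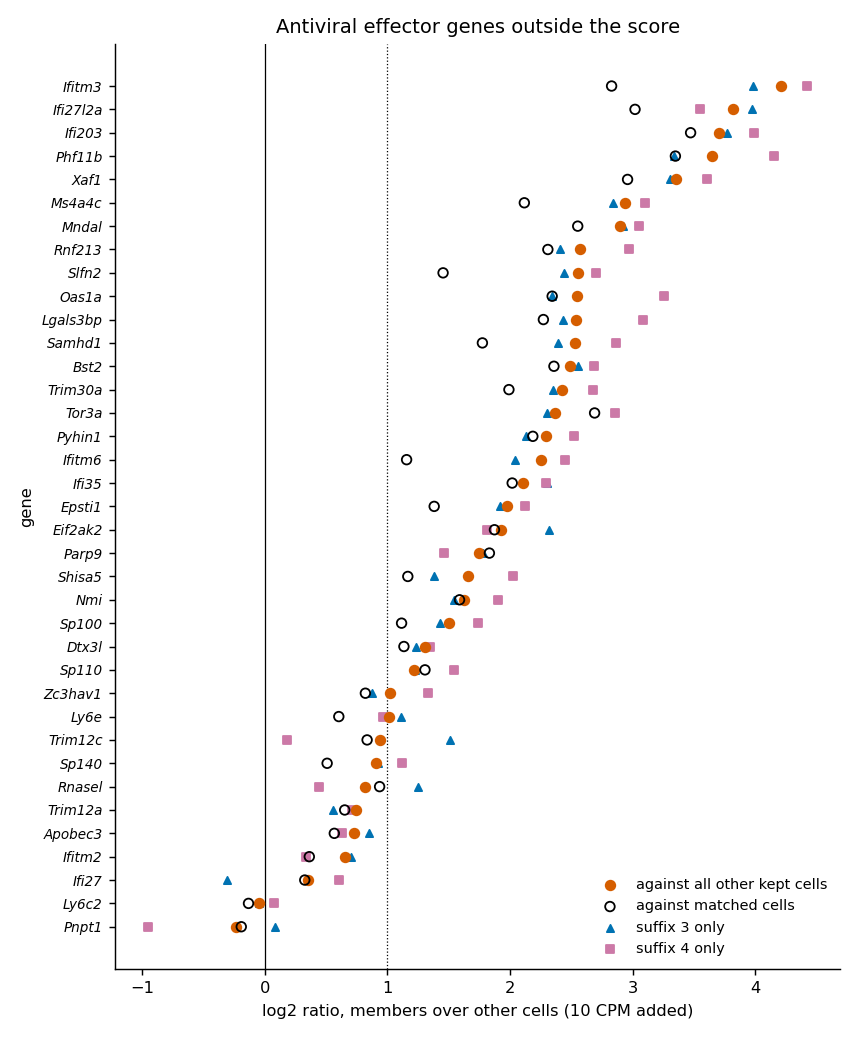
Log2 ratio of members over other cells (x axis, 10 CPM added) for the 37 measured antiviral effector genes outside the score (y axis), against all other kept cells of the same suffixes (filled orange), against matched cells (open), and within suffix 3 (triangles) and suffix 4 (squares) alone; the dotted line is 2-fold. The filled points run from Ifitm3 at 4.21 to Pnpt1, and 28 of 37 lie past the dotted line.

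Sensors of foreign or misplaced nucleic acid were higher in part. Of the 9 measured genes that reach 10 CPM in the other cells alone, 2 were past 2-fold higher, against 3.17% of all measured genes, and 0 lower (median 0.39). Zbp1, a sensor of Z-form nucleic acid that can trigger necroptosis, stood at 112, 192, 237 and 380.3 CPM in members of suffixes 1 to 4, against 10.2, 9.28, 9.76 and 9.18 CPM. It was higher in each suffix, at 282 CPM overall (234 to 338) against 9.53 CPM expected, a ratio of 3.90 and a matched ratio of 3.48. It passes the 10 CPM limit only with the members included, and is left out of the count. Dhx58, the RIG-I-like helicase LGP2, had 121 CPM against 15.96 CPM (2.33), and Unc93b1, the chaperone of endosomal Toll-like receptors, 522 against 254 CPM (1.01, matched 0.61). Irf3, the constitutive factor downstream of these sensors, had 33.2 CPM in members against 37.9 CPM (-0.15), and Tmem173, which encodes STING, 68.8 against 31.9 CPM (0.91, not past 2-fold).

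Genes of interferon receptors and their transcription factors were higher in part. Of 12 measured, 5 were past 2-fold higher, against 3.17% of all measured genes, and 0 lower (median 0.88). Against matched cells 3 were, against 1.2% of all measured genes (median 0.38). Irf9, the DNA-binding subunit of ISGF3, stood at 74.4, 128, 85.9 and 181 CPM in members, against 31.0, 27.4, 34.6 and 32.0 CPM (1.66, matched 1.25). Irf5 and Irf1, both activators of inflammatory genes, had ratios of 1.47 and 1.23, and against matched cells 0.55 and 1.01. Irf8, a lineage factor of monocytes and dendritic cells, had 771 CPM in members against 517 CPM (0.57), and Ifngr1, the ligand-binding chain of the interferon-gamma receptor, 334 against 298 CPM (0.16); neither was past 2-fold. Usp18, the ISG15 protease that dampens receptor signalling, lay under the 10 CPM limit, with 156 CPM in members against 1.72 CPM expected.

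Interferon transcripts themselves were not counted in members. All 21 interferon genes in the table had 0 UMIs in 421771 member UMIs, which allows up to 7.11 CPM for each. The 5347 other kept cells held 2 UMIs, of Ifnk and Ifnz. The interferon source, inside or outside the sorted cells, was not tested.

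Immunity GTPases and class I presentation, both inducible by interferons, differed in size. Ifi47, a GTPase acting on vacuoles of intracellular microbes, had 202 CPM in members against 24.5 CPM (2.62, matched 2.97), Igtp 75.9 against 12.8 CPM (1.91) and Gbp3 49.8 against 35.2 CPM (0.40). Of 19 measured class I genes 2 (10.5%, against 3.17% of all measured genes) were past 2-fold higher and 0 lower, with a median of 0.59 (matched 0.56). B2m, the light chain of class I molecules, stood at 2679, 4063, 3854 and 3863 CPM in members, against 3254, 3543, 2134 and 2411 CPM. Members were thus below the other cells in suffix 1 and above them in the rest, and the ratio was 0.65. H2-T22 and H2-T23, non-classical class I genes, had ratios of 1.55 and 1.08 (matched 1.54 and 0.56, the second not past 2-fold), and H2-D1, a classical heavy chain, 0.89. Near-identical class I genes can exchange reads.

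For Cd74, H2-Aa, H2-Ab1 and H2-Eb1, most class II UMIs came from a single cell, which held 47.2% of the members' UMIs of the whole class II list. Of 7 measured class II genes 1 (against 3.17% of all measured genes), Cd74, the invariant chain, was past 2-fold higher, at 344 CPM in members against 17.4 CPM expected. A cell of suffix 4 with 3050 UMIs held 121 of the 145 Cd74 UMIs (83.4%). The same cell held 51 H2-Aa, 37 H2-Ab1 and 25 H2-Eb1 UMIs, and 252 class II UMIs in all, against 11 and 9 in the next 2 members. Without it the Cd74 ratio was 1.29, against 3.69 with it, and that of Ifitm3 was 4.20. Siglech, Cd79a, Zbtb46 and Flt3, markers of plasmacytoid dendritic, B and conventional dendritic cells and of progenitors, were at 0 UMIs in that cell. Over the members they were expected at 1.00, 0.00893, 0 and 104 CPM, levels that 3050 UMIs could not show. The type of that cell was not tested. It held 2 UMIs of Tcf4, a gene of the plasmacytoid dendritic cell list, and 1 of Csf1r. H2-DMa, a subunit of the class II peptide-loading chaperone, was spread over the members, with no cell above 5.76% of its 191 UMIs, at 453 CPM in members against 274 CPM expected (0.70, not past 2-fold).

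**Figure D4:**
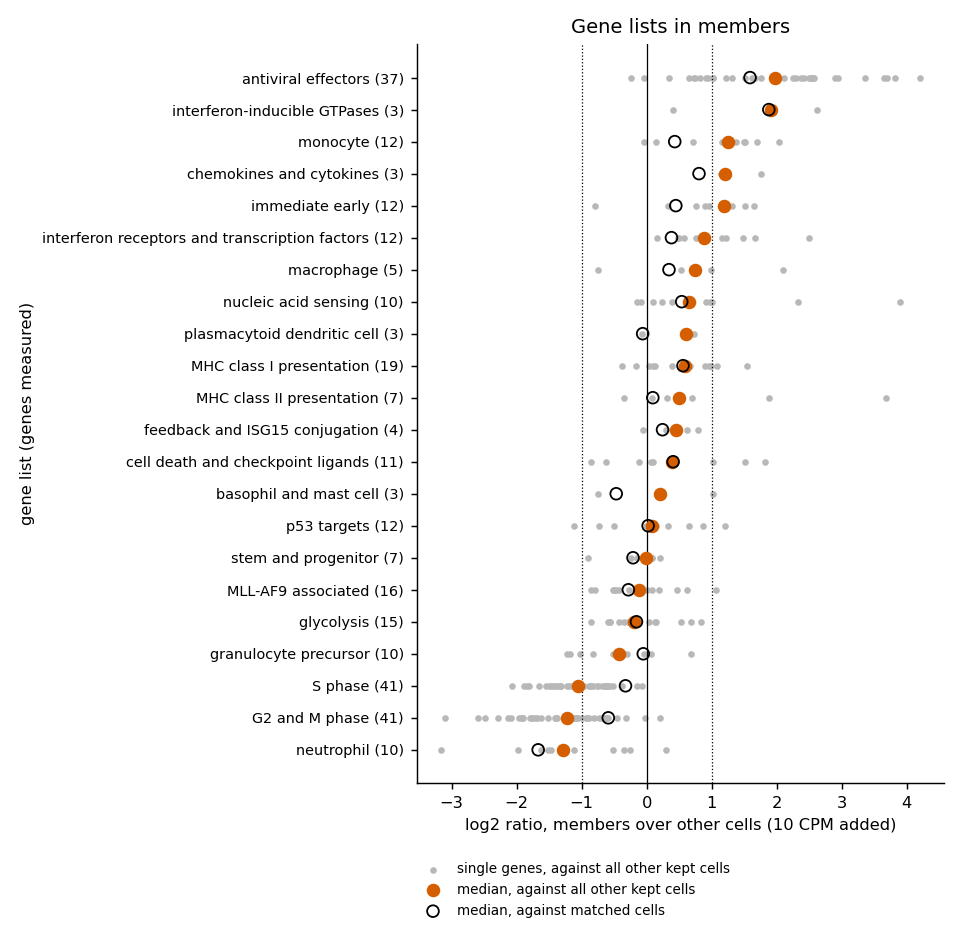
Log2 ratio of members over other cells (x axis, 10 CPM added) for gene lists with at least 3 measured genes (y axis, number measured in parentheses); grey points are single genes and orange points list medians against all other kept cells, open circles list medians against matched cells. The antiviral median is 1.97, and 1.59 against matched cells; the monocyte median is 1.25 and 0.43, and the S phase median -1.06 and -0.33.

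Monocyte markers were higher in members too. Of 12 measured, 9 were past 2-fold higher, against 3.17% of all measured genes, and 0 lower, with a median of 1.25. The medians were -0.35, 1.77, 1.19 and 1.34 in suffixes 1 to 4. Against matched cells, which were matched on this list, the median was 0.43 and 0 were past 2-fold. Lyz2, lysozyme, stood at 186, 15452, 9062 and 12084 CPM in members, against 420.5, 647, 4353 and 5156 CPM in the other cells. It was lower in the 4 members of suffix 1 and higher elsewhere, with a ratio of 1.29 and a matched ratio of 0.03. Ccr2, the receptor by which monocytes leave the marrow, stood at 0, 128, 258 and 284 CPM against 17.3, 18.6, 56.9 and 56.9 CPM (2.03, matched 0.87). Csf1r, the receptor for macrophage colony-stimulating factor, had 149 CPM in members against 46.3 CPM (1.5). Ly6c2, with Lyz2 the highest of the list by level, was not higher, at 2878 CPM in members against 2967 CPM (-0.04, matched -0.13). Summed over all 16 markers in the table, of which 1 was at 0 UMIs in members, the level was 2642, 19547, 15715 and 19454 CPM in members, against 3187, 4254, 9017 and 9955 CPM. Much of these sums is Lyz2, with 15452 of the 19547 CPM in suffix 2. Per cell, the suffix 2 median was 43.6 marker UMIs per 10000 in members against 37.3 in its other cells. Of its 7 members, 2 lay above the 95th percentile of those cells, and the highest member had 667.

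Per cell, members overlapped the other cells in monocyte transcripts. Their marker UMIs per 10000 ran from 0 to 737 with a median of 97.4. Over the other cells of all suffixes the median was 45.4 and the highest value 1017. In suffixes 3 and 4 the medians were 96.2 and 133 in members, against 61.2 and 63.2 in the other cells. Of the 109 members, 9 lay above the 95th percentile of the other cells of their suffix (8.26%, 3.85 to 15.1). Antiviral effector UMIs per 10000 ran from 23.6 to 747 with a median of 196 in members. In the other cells they ran from 7.85 to 314 with a median of 59.2. These sums hold all 74 list genes in the table outside the score, also the 37 under the 10 CPM limit. In suffixes 3 and 4 the medians were 188 and 240 in members, against 65.3 and 66.2 in the other cells. Here 83 members (76.1%, 67.0 to 83.8) lay above that percentile, 1 of 4, 4 of 7, 44 of 56 and 34 of 42 in suffixes 1 to 4. The groups overlap, and 26 members lay at or below that percentile.

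**Figure D5:**
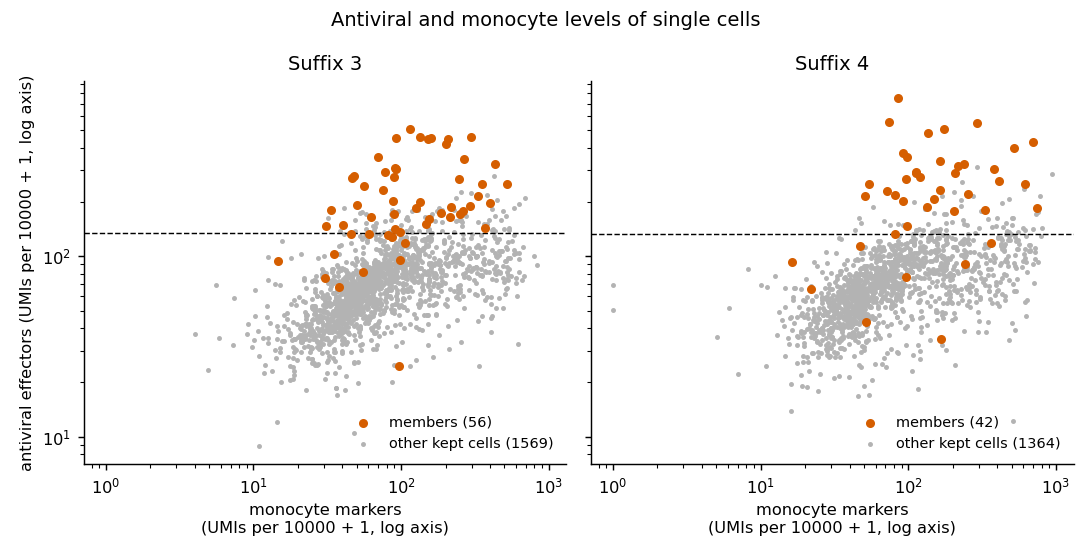
Antiviral effector UMIs per 10000 (y axis) against monocyte marker UMIs per 10000 (x axis), both + 1 on log axes, for each cell of suffix 3 (left) and suffix 4 (right), members in orange and other kept cells in grey; the dashed line is the 95th percentile of the other cells. In these panels 44 of 56 and 34 of 42 members lie above the line, over most of the range of monocyte marker levels; Ly6c2 counts on both axes.

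Wfdc17 and Lpl, which macrophages can express, were among the 15 leading genes. Wfdc17, a small secreted protein with a protease inhibitor domain, stood at 112, 1472, 7587 and 5131 CPM in members, against 145, 195, 1181 and 781 CPM. Members were higher in suffixes 2 to 4, with a ratio of 2.67 and, against matched cells, 1.01. Lpl, lipoprotein lipase, stood at 0, 0, 606 and 658 CPM in members, against 1.18, 1.45, 85.4 and 74.3 CPM (2.80, matched 1.36). Of 5 measured macrophage markers 1, Apoe, a lipid carrier, was past 2-fold higher, against 3.17% of all measured genes. Apoe stood at 614 CPM in members against 135 CPM (2.10, matched 1.12). Cd63, the highest of the 5 by level, went the other way, at 161 against 278 CPM (-0.75, matched -0.78). Hmox1, Cd68 and Adgre1 had ratios of 0.98, 0.74 and 0.53, and against matched cells 0.43, 0.34 and -0.29. Vcam1, under the 10 CPM limit, had 0 UMIs in members against 8.15 CPM expected. Under the 10 CPM limit, Trem2, a lipid-sensing receptor of macrophages, had 59.3 CPM in members against 12.3 CPM expected, and Fcgr1, a high-affinity IgG receptor, 23.7 against 0.0482 CPM. C1qa, C1qb and C1qc were at 0 UMIs in members, but were expected at 0.111 CPM or less, which 421771 UMIs could not show. A530040E14Rik, an unnamed gene on chromosome 1, completes the 15, at 135 CPM against 13.3 CPM (2.64).

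Few UMIs of lymphoid, erythroid and megakaryocyte markers were counted in members. The 8 T and NK cell genes had 0 UMIs in members, the erythroid and megakaryocyte lists 1 UMI each, and the B cell list 18, of which 17 were of Cd79b. The first 3 lists were expected at only 0.150, 4.01 and 3.78 CPM, under the 7.11 CPM limit, so their counts could not show a loss. The B cell list stood at 42.7 CPM in members against 69.9 CPM expected. Of 12 plasmacytoid dendritic cell genes 7 were at 0 and Siglech had 1 UMI, but the list summed to 398 CPM in members against 225 CPM expected. Its 3 measured genes, 0 of them past 2-fold, had a median of 0.60 (matched -0.06), with Tcf4, a transcription factor of that lineage, at 289 CPM in members against 170.0 CPM (0.73). The list summed to 112, 128, 470 and 410 CPM in members of suffixes 1 to 4, against 196, 154, 242 and 221 CPM. Of 10 measured neutrophil granule genes 6 were past 2-fold lower, against 4.42% of all measured genes, and 0 higher (median -1.29, or -0.93 with genes at 0 set to the limit of 3 counts), although 1 member held 78.7% of the members' UMIs of that list. Ltf, lactoferrin, had 0 UMIs in members against 80.1 CPM expected, at least 11.3-fold lower in the pooled counts. The neutrophil list medians per cell were 2.36, 0, 6.58 and 3.25 UMIs per 10000 in members of suffixes 1 to 4. In the other cells they were 0, 0, 7.24 and 3.44. The 95th percentile of the other cells was 1487 in suffix 3 and 1004 in suffix 4. The pooled ratios therefore do not show a lower level in a typical member. Of 10 granulocyte precursor genes 3 were lower, against 4.42% of all measured genes (median -0.43), with Elane, neutrophil elastase, at 1558 CPM in members against 3197 CPM (-1.03). In suffix 1 it was higher, at 12912 CPM in the 4 members against 4782 CPM, and the list median there was 0.72. A single member of suffix 1 held 301 of the 347 Elane UMIs there, which is 45.8% of those in all members. Against matched cells the Elane ratio was -0.11.

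Genes of the cell cycle were lower in members. In the G2 and M phase list, 27 of 41 measured genes were past 2-fold lower, against 4.42% of all measured genes, and 0 higher, with a median of -1.23, or -1.0 with the 8 genes at 0 UMIs set to the limit. Against matched cells the median was -0.59 and 6 were lower, against 1.38% of all measured genes. Ube2c, the ubiquitin-conjugating enzyme of the anaphase-promoting complex, had 0 UMIs in members of all 4 suffixes, against 94.6, 89.3, 59.9 and 88.7 CPM in the other cells. This is at least 10.6-fold lower than expected. Top2a, the topoisomerase that separates sister chromatids, had 9.48 CPM (2.58 to 24.3) against 108 CPM, and Hmgb2, a chromatin protein of proliferating cells, 394 against 1141 CPM (-1.51).

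S phase genes were lower as well. Of 41 measured, 22 were lower, against 4.42% of all measured genes, and 0 higher, with a median of -1.06. Against matched cells the median was -0.33 with 4 lower, against 1.38% of all measured genes. Suffix 1 differed, with a median of -0.20 and a summed level of 4205 CPM in its 4 members against 3841 CPM in the other cells. Its member with 14962 UMIs held 19.2% of the S phase UMIs of all members, so these pooled values rest largely on 1 cell. Per cell, the suffix 1 median was 32.2 S phase UMIs per 10000 in members against 27.8 in its other cells. Rrm2, the ribonucleotide reductase subunit made in S phase, had 19.0 CPM (8.19 to 37.4) in members against 111 CPM, and 1 member held 75% of its 8 UMIs. Both lists, with 41 of the 6588 measured genes each, together account for 49 of the 291 lower genes. No member of 109 (0%, exact upper bound 3.33%) had G2 and M phase UMIs above the 95th percentile of the other cells of its suffix. The median was 11.95 per 10000 in members, 16.03 in matched cells and 22.4 in all other cells. In suffixes 3 and 4 it was 11.8 and 11.3 in members, against 18.1 and 19.8 in the other cells.

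Ranked by score, the members were described in 3 bins. The top 36 were 18 cells of suffix 3 and 18 of suffix 4, the middle 36 included 5 cells of suffixes 1 and 2 and the lowest 37 included 6. The antiviral median ratio was 2.65 in the top, 1.73 in the middle and 1.27 in the lowest bin. Ifitm3 stood at 6613, 2932 and 2288 CPM, Zbp1 at 624, 160 and 147 CPM and Oasl2 at 416, 166 and 96.2 CPM in that order. The monocyte median was 1.48, 1.28 and 1.02, and the G2 and M phase median -1.44, -1.19 and -1.29. The bins also differed in depth, with medians of 3029.5, 3719.5 and 4065 UMIs per cell, and the part of depth in these values was not tested. Across the 109 members, monocyte and antiviral levels per cell had Pearson's r 0.22 and Spearman's rho 0.43. Ly6c2 was counted in both, and both levels are shares of the same cells' UMIs. In suffixes 3 and 4, r and rho were 0.19 and 0.34 in the 98 members, and higher, at 0.45 and 0.63, in the 2933 other cells. Total UMIs and the antiviral level had r -0.36 and rho -0.41 across the 109 members.

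Hif1a, the floxed gene, stood at 42.7 CPM in members (25.3 to 67.4) against 29.1 CPM expected, a ratio of 0.43 that is not past 2-fold and rests on 18 UMIs. A 3' count can persist outside the deleted part, so it checks no genotype.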

How the data were processed

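The authors deposited 1 table of UMI counts, whole numbers without normalization, for 27998 gene symbols and 5664 barcodes of 4 libraries made with the 10x 3' V2 kit, per the labels. Cell Ranger 1.3 and build mm10 are named in the submitters' processing notes, with Seurat 2.3.4 for later steps (1.4 in the design text); no source used here names the annotation. Barcodes with over 10% mitochondrial UMIs (208) were left out. Of kept cells, 30 carry a barcode sequence that occurs in another suffix, 2 of them members. Scrublet (scanpy 1.11.5) marked 24 cells (0.440%) and no member; this is too few to take it as working, and none were removed. Computation used Python 3.11.15, numpy 2.4.6 and edgeR 4.0.16 (TMM factors only). The fold rule was tested on simulated data. Members, gene lists and rules were chosen with earlier results of these data known. Named genes are the score genes and Hif1a, in each list the 2 highest by level and 4 by ratio, the 15 highest and 10 lowest of all, and interferon genes; a few of them are not reported here, and Pnpt1 and the genes under 10 CPM were chosen after their values were seen.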

Additional observations from a re-analysis of the deposited data

How the results depend on the processing

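There were 22 alternatives, 1 of them (leaving out the class II cell) chosen after seeing the data, and none gave the antiviral (1.35 to 2.43), monocyte (0.43 to 1.5) or G2 and M phase (-2.31 to -0.50) median the other sign. Only settings that moved a value are given. The numbers of higher and lower genes were 384 and 842 for the top 1% of cells, 87 and 109 for the top 4%, 132 and 161 with the score on cells thinned to 2000 UMIs, 82 and 155 without Irf7 in the score, 79 and 91 against matched cells, 344 and 709 with 1 CPM added, 86 and 40 with 50 CPM added, and 75 and 126 at 50 CPM or more; without Isg15 in the score 457 were lower, and without a filter on low genes 359 were higher. The members' shares of suffixes 1 to 4 were 0%, 0.160%, 1.72% and 1.78% for the top 1% and 2.04%, 2.16%, 5.91% and 5.05% for the top 4%; without Irf7 that of suffix 1 was 1.02%. Members above the 95th percentile in antiviral level were 94.5% for the top 1%, 52.3% for the top 4%, 63.6% with thinning and 59.6% without Irf7. Matching gave a monocyte median of 0.43 and a G2 and M phase median of -0.59, which was -2.31 with 1 CPM and -0.50 with 50 CPM added. Against matched cells Mpo (0.12) and Cpa3 (-0.062) took the other sign. The cause of these changes was not tested. No paired analysis was possible because the barcode suffixes carry no sample and no replicate number. With 26875 and 31258 member UMIs in suffixes 1 and 2, a 0 there allows up to 112 and 96.0 CPM.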

Other observations

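Immediate early and chemokine genes were higher in members as well. Of 12 measured immediate early genes 7 were past 2-fold higher, against 3.17% of all measured genes, and 0 lower (median 1.20). The median was -0.70 in the 4 members of suffix 1 and 1.14, 1.25 and 1.03 in suffixes 2 to 4, and against matched cells the median was 0.45 with 0 past 2-fold. Klf2, a transcription factor of quiescent leukocytes, had 462 CPM in members against 156 CPM expected (1.51, matched 0.48). All 3 measured chemokine genes were past 2-fold higher, against 3.17% of all measured genes. Ccl6 had a ratio of 1.76, Ccl3 of 1.21 and Ccl9 of 1.14. None of them was past 2-fold against matched cells (0.88, 0.35 and 0.80). Their median against all other cells was -0.48 in suffix 1. Among 11 measured cell death and checkpoint genes, Daxx (1.81), the inflammatory caspase gene Casp4 (1.51) and the survival gene Mcl1 (1.02) were past 2-fold, against 3.17% of all measured genes, and Mcl1 was not against matched cells (0.60); Bcl2 stood at -0.86.

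Of 16 measured MLL-AF9 associated genes 1, Id2 (1.06, matched 0.25), was past 2-fold higher and 0 lower, with a median of -0.11. This share (6.25%) is near the 3.17% of all measured genes. The 15 measured glycolysis genes had 0 past 2-fold in either direction (median -0.19), with Gapdh at 1150 CPM in members against 1698 CPM (-0.56). Of 12 measured p53 targets 1, Btg2, was past 2-fold higher (1.20, matched 0.41), against 3.17% of all measured genes. Another, Gadd45a, was lower, against 4.42% of all, with 2 UMIs in members (4.74 CPM, 0.574 to 17.1) against 22.1 CPM expected. The median of the 12 was 0.09. None of the 7 measured stem and progenitor genes was past 2-fold (median -0.02), with Cd34 at 107 CPM in members against 128 CPM.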
